A study of Mus musculus with 13 samples.

Results

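The miRNAs described here are mmu-miR-26a-5p and mmu-miR-26b-5p of the miR-26 family and mmu-miR-103-3p and mmu-miR-107-3p of the miR-103/miR-107 family. They were chosen by name, with earlier results of these data known, and all 4 were among the 1079 mouse miRNAs of the array. The samples were 13 flank tumors of male C57BL/6 mice, grown from subcutaneously injected B78H1 cells, an amelanotic and MHC-I-negative clone of the B16 mouse melanoma. In 7 mice the chow contained 4% curcumin, given as a powder of curcumin and related curcuminoids. The other 6 mice, called controls here, received chow of the same batch without curcumin. The diets began 14 days before the cells were injected and lasted until the tumors were taken after 28 days. The age of the mice was not given in the sources used here. Cells were injected in both flanks of each mouse, and the labels do not give the mouse or the flank of a tumor. In each diet the number of arrays equals the number of mice. Each tumor gave 1 array, and the question was whether the diet changes the miRNAs of the tumor.

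In animal cells a mature miRNA guides Argonaute proteins to mRNAs that pair with its seed, the bases 2 to 8, and lowers the output of those mRNAs. miR-26 is made from introns of the Ctdsp genes, which encode small phosphatases of the RNA polymerase II tail, and it is widely described as a brake on growth that represses Ezh2. miR-103 and miR-107 lie in introns of the Pank genes, which encode pantothenate kinases, the enzymes that start coenzyme A synthesis. They are known for the repression of Dicer1 and Cav1 and for a role in insulin sensitivity. Each family therefore has several genes that make the same or nearly the same miRNA, and a probe on an array cannot separate copies with the same mature sequence.

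The mature sequences, taken from RefSeq (GRCm38.p6), are shown because each family is held together by its seed, printed in capitals, and because the probes have to tell near-identical molecules apart.
mmu-miR-26a-5p: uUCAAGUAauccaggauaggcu
mmu-miR-26b-5p: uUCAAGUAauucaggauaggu
mmu-miR-103-3p: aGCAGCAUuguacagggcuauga
mmu-miR-107-3p: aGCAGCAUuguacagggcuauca
Counted from 1 at the 5′ end of mmu-miR-26a-5p, the miR-26 sequences differed by C11U and C21U, and mmu-miR-26b-5p is 21 bases long in place of 22. The sequences of mmu-miR-103-3p and mmu-miR-107-3p differed by G22C alone. No other miRNA of the array that could be matched to RefSeq had either seed.

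mmu-miR-26a-5p is made from a pair of genes, Mir26a-1 within Ctdspl (mature sequence at chr9:119031811-119031832, plus strand) and Mir26a-2 within Ctdsp2 (chr10:126995543-126995564, plus strand). mmu-miR-26b-5p comes from Mir26b within Ctdsp1 (chr1:74394324-74394344, plus strand). mmu-miR-103-3p is made from Mir103-1 within Pank3 (chr11:35782447-35782469, plus strand) and Mir103-2 within Pank2 (chr2:131288103-131288125, plus strand). mmu-miR-107-3p comes from Mir107 within Pank1 (chr19:34820700-34820722, minus strand). The coordinates are those of GRCm38.p6, and host genes were assigned by the span of the gene. The array cannot say which gene copy a mature miRNA came from.

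All 4 miRNAs were called detected on all 13 arrays. The intensity summed over all mouse miRNAs lay between 114095 and 281508 in curcumin tumors and between 150272 and 244666 in controls, and 272 to 370 and 313 to 412 miRNAs were detected. Curcumin tumor 5 had the lowest sum and the fewest detected miRNAs of all arrays, and its values are named below. Slide and line were read from the names under which the scans were deposited, not from the sample labels. By these names each slide held its control arrays in line 1 and its curcumin arrays in line 2, and line and diet cannot be told apart. As a check of the tissue, the melanocyte marker mmu-miR-211-5p reached detection in 4 curcumin tumors and all 6 controls, and the marker mmu-miR-204-5p in 0 curcumin tumors and 3 controls.

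The miR-26 family was higher in tumors of curcumin-fed mice, by 1.87-fold for mmu-miR-26a-5p and by 1.90-fold for mmu-miR-26b-5p. The miR-103/miR-107 family was not, with ratios of 0.786 and 0.852 that did not pass the test. In every pair of miRNAs between the families, their difference on the same array was larger in curcumin tumors than in controls. The groups did not overlap in the pairs with mmu-miR-26a-5p, but they did in the pairs with mmu-miR-26b-5p. How often other pairs of miRNAs on the array separate in this way was not counted. The values are log2 intensities after quantile normalization, in which every array is given the same distribution of values. Each change is therefore set against the rest of the array. Levels of different miRNAs are not compared with each other, since their probes bind with different strength. In RNA of whole tumors, fewer cells of a type and less RNA per cell cannot be told apart.

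mmu-miR-26a-5p was at 9.72, 9.51, 9.47, 9.35, 9.17 and 9.61 on the log2 scale in control tumors 1 to 6. In curcumin tumors 1 to 7 it was at 10.64, 10.56, 10.19, 10.56, 9.72, 10.51 and 10.44. Of the 7 curcumin tumors, 6 lay above every control, and curcumin tumor 5 had the same value as the highest control. The means were 10.37 ± 0.32 (SD, n = 7) and 9.47 ± 0.19 (SD, n = 6). The difference of 0.90 on the log2 scale (standard error 0.15, 95% interval 0.58 to 1.23) passed the threshold (limma, adjusted p = 0.00351), which was an adjusted p-value of 0.05. The exact permutation test over the 1716 splits of the tumors gave p = 0.00175 (two-sided), where 0.000583 is the smallest p possible.

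mmu-miR-26b-5p, which has the same seed, was likewise higher in curcumin tumors. Control tumors 1 to 6 were at 7.52, 7.28, 7.64, 7.28, 6.97 and 7.54 on the log2 scale. Curcumin tumors 1 to 7 were at 8.53, 8.58, 8.01, 8.53, 7.52, 8.53 and 8.38. Again 6 of 7 curcumin tumors lay above all controls, and curcumin tumor 5 lay within the range of the controls. The means were 8.30 ± 0.40 (SD, n = 7) and 7.37 ± 0.24 (SD, n = 6). The difference was 0.93 (standard error 0.18, 95% interval 0.52 to 1.33, limma adjusted p = 0.00745), with p = 0.00291 in the exact permutation test (two-sided).

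In either direction, 2 of the 4 miRNAs passed, as did 15.8% of all 1079 miRNAs and 41.6% of the 243 detected on all arrays. Over all 1079 miRNAs, 8.34% passed the threshold as higher in curcumin tumors. Among the 243, to which the 4 miRNAs belong, the share was 20.2%. A difference above 0, whatever its p, was found in 65.9% of all miRNAs and in 43.2% of the 243. The first share includes miRNAs without a measured difference and cannot be read as the share that rose. For example, mmu-miR-26a-1-3p and mmu-miR-107-5p were at the floor of −7.03 on the log2 scale in both diets. Their difference of 1.3e-15 was a rounding remainder, which counts as above 0. Of all 1079 miRNAs, 594 were detected on no array. The miR-26 family thus passed with 2 of 2 members, in a data set in which such calls were common. Ranked by the size of the difference, mmu-miR-26b-5p was at place 42 and mmu-miR-26a-5p at place 43 from the top of these 243. Their median difference was −0.09, and against it the members stood at 1.02 and 1.00. Groups without any overlap, which none of the 4 miRNAs had, were found as higher in 4.08% of all miRNAs and 8.23% of the 243, and as lower in 1.39% and 3.7%. Without curcumin tumor 5 the differences of mmu-miR-26a-5p and mmu-miR-26b-5p were 1.01 and 1.06 (limma, adjusted p = 8.998e-05 and 0.000296).

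The summed signals before normalization had higher medians in curcumin tumors for both miR-26 miRNAs, with a wider spread. The signal of mmu-miR-26a-5p ran from 423.9 to 2772 in curcumin tumors (median 1579) and from 540 to 886 in controls (median 621). For mmu-miR-26b-5p it ran from 93.4 to 556 (median 355) and from 133.002 to 193 (median 157). The lowest signal in each case was that of curcumin tumor 5, below all controls. Without normalization the differences of 1.13 and 0.93 did not pass the threshold (limma, adjusted p = 0.120 and 0.190). When each array was scaled by 1 factor, the 75th percentile of the 243 miRNAs, mmu-miR-26a-5p lay between 9.98 and 10.88 in curcumin tumors and between 9.28 and 9.70 in controls (log2 values), and mmu-miR-26b-5p between 7.79 and 8.61 and between 7.07 and 7.67. On that scale neither miRNA had overlapping groups, curcumin tumor 5 included, and neither did 3.89% of all miRNAs and 13.6% of the 243 with higher values in curcumin tumors.

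**Figure D1:**
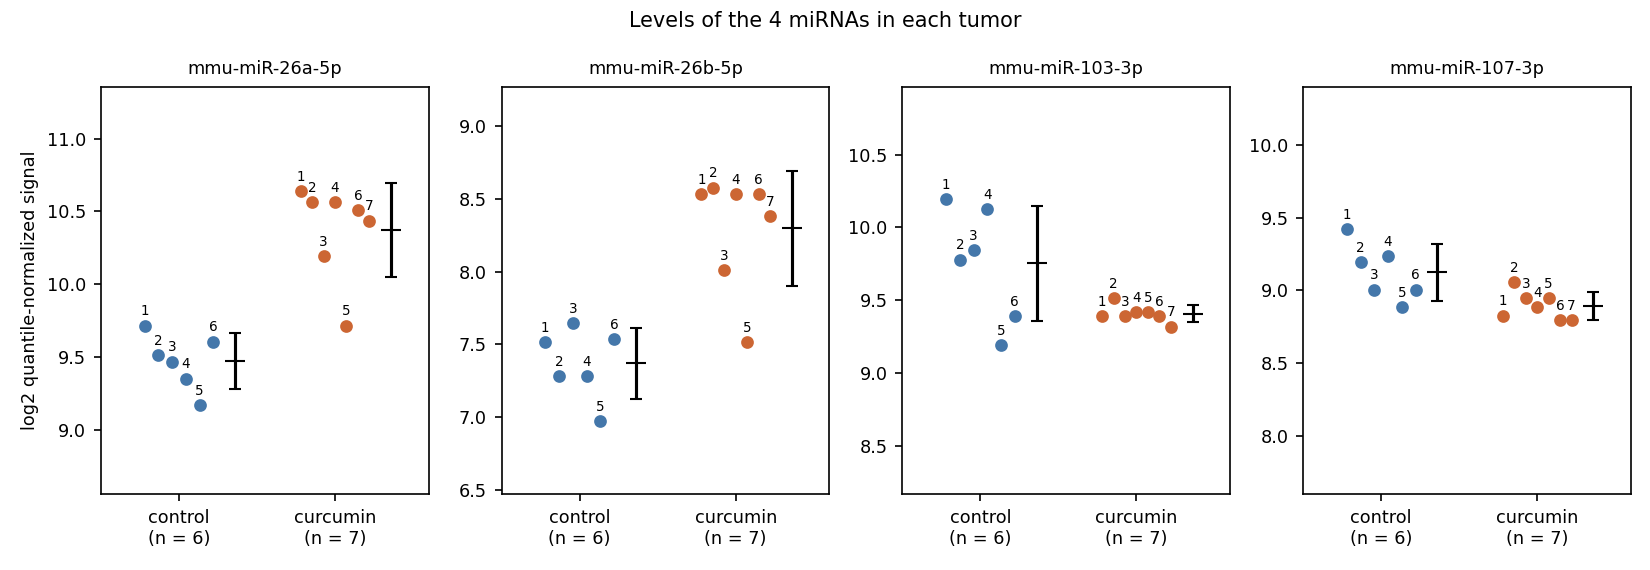
Log2 quantile-normalized signal of the 4 miRNAs in each tumor, control (blue, n = 6) and curcumin (orange, n = 7), with the number of the tumor at each point and the mean ± SD in black. All panels span the same range of log2 units but start at different levels. For both miR-26 miRNAs 6 of 7 curcumin tumors lie above all controls and tumor 5 among the controls, whereas the groups overlap for mmu-miR-103-3p and mmu-miR-107-3p.

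In the miR-103/miR-107 family, mmu-miR-103-3p was at 10.19, 9.78, 9.84, 10.12, 9.19 and 9.39 on the log2 scale in control tumors 1 to 6. In curcumin tumors 1 to 7 it was at 9.39, 9.51, 9.39, 9.42, 9.42, 9.39 and 9.32. Control tumors 1 to 4 lay above all curcumin tumors and control tumor 5 below all of them. The means were 9.41 ± 0.06 (SD, n = 7) and 9.75 ± 0.40 (SD, n = 6). The difference of −0.35 (standard error 0.15, 95% interval −0.67 to −0.02) did not pass the threshold (limma, adjusted p = 0.154), and the exact permutation p before any adjustment was 0.0449 (two-sided).

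mmu-miR-107-3p was at 9.42, 9.19, 9.003, 9.24, 8.88 and 9.003 on the log2 scale in control tumors 1 to 6. Curcumin tumors 1 to 7 were at 8.83, 9.06, 8.95, 8.88, 8.95, 8.79 and 8.79. In this miRNA control tumors 1, 2 and 4 lay above every curcumin tumor, and the other controls overlapped with them. The means were 8.89 ± 0.10 (SD, n = 7) and 9.12 ± 0.20 (SD, n = 6). The difference was −0.23 (standard error 0.08, 95% interval −0.41 to −0.05, limma adjusted p = 0.0809), with an exact permutation p of 0.0181 (two-sided) before adjustment.

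The unscaled signal of mmu-miR-103-3p ran from 352 to 1105 in curcumin tumors (median 632) and from 589 to 970 in controls (median 830). For mmu-miR-107-3p it ran from 234 to 730 (median 450) and from 425 to 622 (median 546). Before scaling, the curcumin tumors thus spanned the whole range of the controls in both.

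None of the 2 members of the miR-103/miR-107 family passed the threshold as lower, which 7.51% of all miRNAs and 21.4% of those detected on all arrays did. With an unadjusted p below 0.05 in limma both members were lower, as were 14.3% of all miRNAs and 31.3% of the 243. Since the intervals reach down to ratios of 0.627 and 0.752, the test does not show that the levels were equal. Leaving out control tumor 5, the lowest control in both, moved the differences to −0.46 and −0.28, which passed (limma, adjusted p = 0.0311 and 0.0429). Relative to the median of the 243 miRNAs the members stood at −0.25 and −0.14. With the scaling by 1 factor mmu-miR-103-3p stood at −0.01 and mmu-miR-107-3p at 0.04 from the median, which had itself moved to −0.25. The spread of mmu-miR-103-3p also depended on this step. In curcumin tumors and controls the SD was 0.06 and 0.40 after quantile normalization and 0.17 and 0.21 after scaling by 1 factor.

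**Figure D2:**
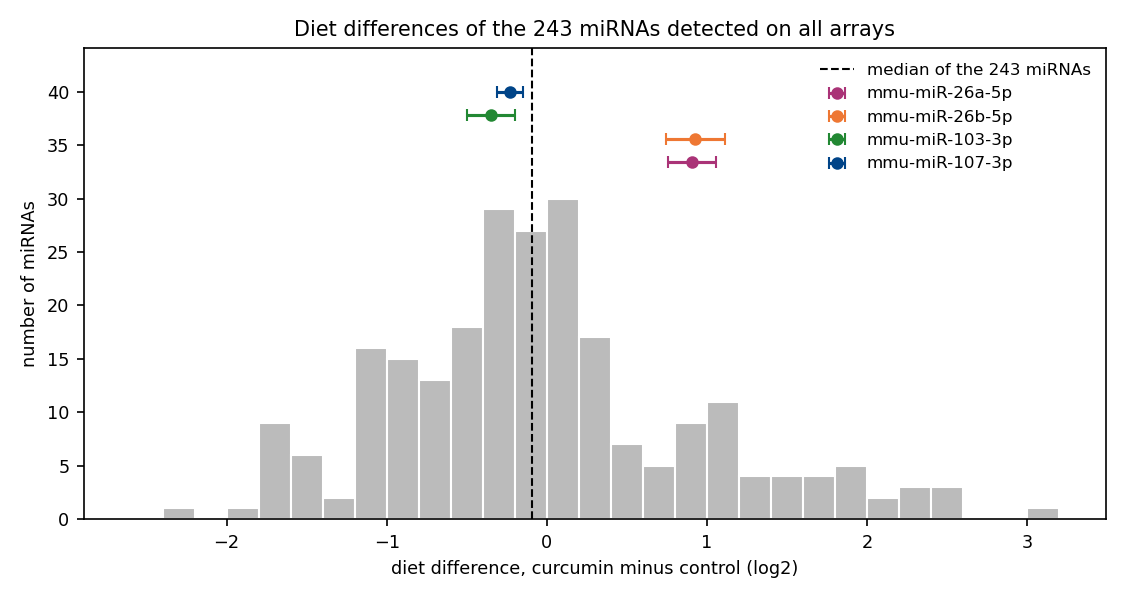
Histogram of the diet differences (curcumin minus control, log2) of the 243 miRNAs detected on all 13 arrays, with the number of miRNAs on the vertical axis. The bars leave out mmu-miR-106b-3p, whose difference of −3.24 lies below their range. The points above it mark the 4 miRNAs with their standard errors, at heights that have no meaning. The miR-26 miRNAs at 0.90 and 0.93 lie in the upper part of the distribution and the miR-103/miR-107 miRNAs at −0.35 and −0.23 near its median of −0.09.

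Whether the families responded differently was tested in the difference between their members on the same array. Between each miR-26 miRNA and each miR-103/miR-107 miRNA, the difference was larger in curcumin tumors than in controls. All 6 pairs of the 4 miRNAs were compared with exact permutation tests, and the p-values were adjusted over the 6 pairs. mmu-miR-26a-5p minus mmu-miR-103-3p was 0.97 ± 0.33 (SD, n = 7) in curcumin tumors, from 0.30 to 1.25, and −0.28 ± 0.35 (SD, n = 6) in controls, from −0.77 to 0.22. The groups did not overlap, although curcumin tumor 5 was the lowest of its group. The gap between the diets was 1.25 on the log2 scale, a change of 2.38-fold in the ratio (95% interval 0.84 to 1.66, exact permutation p = 0.00117, adjusted p = 0.00262).

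For mmu-miR-26a-5p minus mmu-miR-107-3p the gap was 1.13 (95% interval 0.78 to 1.49), again with no overlap between the groups. For mmu-miR-26b-5p it was 1.27 against mmu-miR-103-3p (95% interval 0.81 to 1.74) and 1.16 against mmu-miR-107-3p (95% interval 0.71 to 1.60). In these last pairs 6 of 7 curcumin tumors lay above all controls, and curcumin tumor 5 lay within their range. The adjusted p was 0.00262 in each of the 4 comparisons between the families (exact permutation tests). The 4 comparisons use the same arrays and are not independent. How many other pairs of miRNAs have such a gap was not counted. Among the 243 miRNAs, 20.2% passed as higher and 21.4% as lower, so gaps between miRNAs may be common.

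Within the families no gap passed the test on these values. mmu-miR-26a-5p minus mmu-miR-26b-5p differed between the diets by −0.02 (95% interval −0.17 to 0.13, exact permutation, adjusted p = 0.754). mmu-miR-103-3p minus mmu-miR-107-3p differed by −0.12 (95% interval −0.32 to 0.09, exact permutation, adjusted p = 0.279). The intervals allow differences of these sizes between the members of a family.

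**Figure D3:**
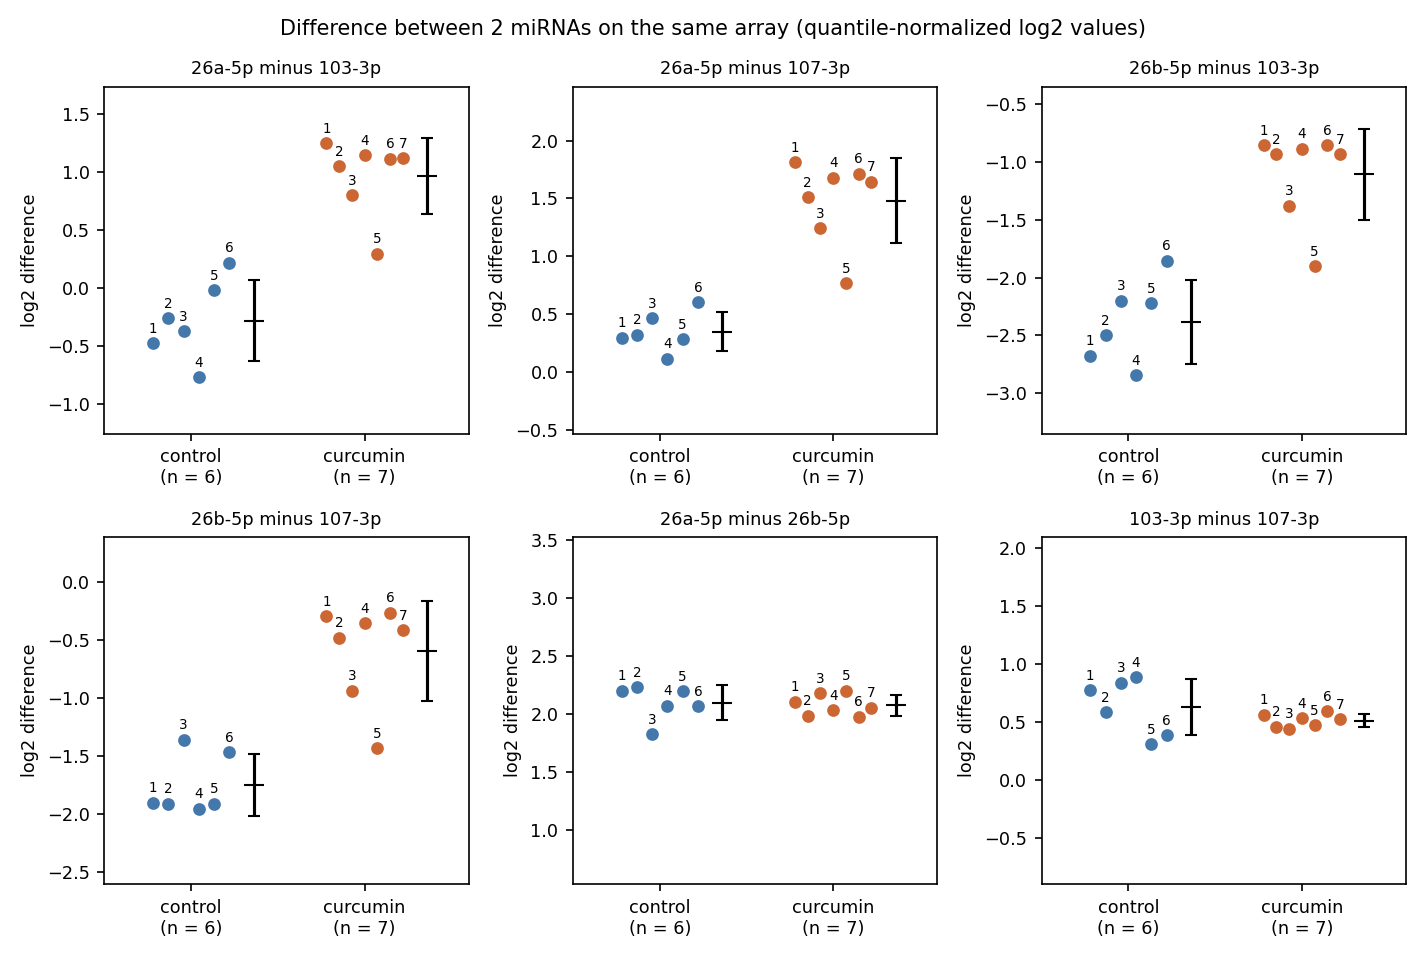
Difference between 2 miRNAs on the same array, in log2 units of quantile-normalized signal, for the 6 pairs of the 4 miRNAs, in control (blue, n = 6) and curcumin tumors (orange, n = 7), with tumor numbers and mean ± SD. All panels span 3 log2 units. The 4 pairs between the families are higher in curcumin tumors, by 1.13 to 1.27, and the 2 pairs within a family overlap.

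Quantile normalization shifts bright and dim miRNAs of an array by different amounts, so the pairs were also read as plain ratios of the measured signals, which no factor per array can change. In control tumors 1 to 6 the signal of mmu-miR-26a-5p was 0.769, 0.785, 0.850, 0.720, 0.980 and 1.06 times that of mmu-miR-103-3p. In curcumin tumors 1 to 7 this ratio was 2.53, 2.51, 2.17, 2.90, 1.20, 2.67 and 2.30. Every curcumin tumor, tumor 5 included, lay above every control. The ratio was 2.65-fold higher in curcumin tumors, or 1.40 on the log2 scale (exact permutation p = 0.00117, adjusted over the 6 pairs p = 0.00175). In the other 3 comparisons between the families the groups did not overlap either, and the gaps were 1.15 to 1.35 on the log2 scale. The share of other miRNA pairs without overlap was not counted for these ratios either.

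On this scale the miR-26 miRNAs did not move by the same amount. The signal of mmu-miR-26a-5p was 3.82, 3.94, 4.06, 4.10, 4.61 and 4.08 times that of mmu-miR-26b-5p in control tumors 1 to 6. It was 4.43, 4.99, 4.88, 4.92, 4.54, 4.86 and 4.37 times as high in curcumin tumors 1 to 7. Apart from control tumor 5 at 4.61, all controls lay below all curcumin tumors. The gap of 0.20 on the log2 scale, or 1.15-fold, passed the test (exact permutation p = 0.00466, adjusted p = 0.00559), whereas after quantile normalization of the summed signals it was −0.02. The gap also passed after normexp background correction (0.23, exact permutation, adjusted p = 0.0028) and with the brightest probe of each miRNA (0.20, exact permutation, adjusted p = 0.0484), both of which were quantile normalized as well. The ratio of mmu-miR-103-3p to mmu-miR-107-3p lay between 1.36 and 1.56 in controls and between 1.32 and 1.51 in curcumin tumors. Its gap of −0.05 on the log2 scale did not pass (exact permutation, adjusted p = 0.226).

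Each of the 4 miRNAs was measured with 2 probes of 20 spots each. The median coefficient of variation among the 20 spots of a probe was 3.04% to 4.69%, and the highest on any array was 24.6%, for a probe of mmu-miR-26a-5p. The probes of mmu-miR-26a-5p gave diet differences of 0.91 and 0.90, and those of mmu-miR-26b-5p 0.90 and 0.97. In mmu-miR-103-3p the probes gave −0.36 and −0.32. In mmu-miR-107-3p they were farther apart, with −0.19 for the brighter probe and −0.35 for the dimmer one, which gave 25.7% to 30.8% of the summed signal. The brighter and the dimmer probe thus had the same direction in each miRNA. How much of the signal of a probe came from the sister miRNA of its family was not tested.

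The other strands of the hairpins were at or near the background. Of 6 such strands listed, 5 were on the array under their own names. mmu-miR-26a-1-3p, mmu-miR-26a-2-3p, mmu-miR-26b-3p and mmu-miR-107-5p were detected on 0 of 13 arrays. mmu-miR-103-1-5p was detected in 2 of 6 controls and in 0 of 7 curcumin tumors, and its difference did not pass the threshold (limma, adjusted p = 0.0893). Folds are left out for signals this low. The changes in the miR-26 family were thus measured in the 5p strand alone.

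The miR-15/16 group carries the first bases of mmu-miR-103-3p shifted by 1 position and is therefore often set beside it. The run agcagca lies at bases 1 to 7 in mmu-miR-103-3p and mmu-miR-107-3p and at bases 2 to 8, which form the seed, in the following members.
mmu-miR-16-5p: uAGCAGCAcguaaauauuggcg
mmu-miR-322-5p: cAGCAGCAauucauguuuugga
Of 9 listed relatives 8 were on the array, and 7 were detected on all arrays. Of the 8, 3 were higher in curcumin tumors and 0 lower, beside 8.34% and 7.51% of all miRNAs and 20.2% and 21.4% of the 243. mmu-miR-322-5p had a difference of 1.65 (standard error 0.26, limma adjusted p = 0.00348), mmu-miR-503-5p of 1.52 and mmu-miR-195-5p of 1.16. mmu-miR-16-5p was at 9.73 ± 0.13 (SD, n = 7) and 9.76 ± 0.42 (SD, n = 6), a difference of −0.03 (limma, adjusted p = 1.00), and mmu-miR-15b-5p had a difference of −0.14 (limma, adjusted p = 0.875). The median of the 7 detected relatives was 0.96, beside −0.09 for all 243 miRNAs detected on all arrays.

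The likeness of patterns was measured by the root mean square difference between log2 values, each miRNA centered on its own median over the 13 tumors. Of the 242 other miRNAs detected on all arrays, mmu-miR-26b-5p was the nearest to mmu-miR-26a-5p, at 0.11 log2 units. The nearest non-members were mmu-miR-425-5p (0.14) and mmu-miR-27b-3p (0.17) for mmu-miR-26a-5p, and mmu-miR-100-5p (0.16) and mmu-miR-425-5p (0.17) for mmu-miR-26b-5p. mmu-miR-107-3p was at place 3 in likeness to mmu-miR-103-3p, at 0.19, behind mmu-miR-30b-5p and mmu-miR-106b-5p (both 0.17), while mmu-miR-103-3p was at place 9 in likeness to mmu-miR-107-3p. To mmu-miR-107-3p the nearest non-members were mmu-miR-106b-5p (0.11) and mmu-miR-720 (0.16). The distances between the families were 0.65 to 0.73, against 0.11 and 0.19 within them. Since the median was taken over tumors of both diets, these distances contain the diet differences and are not separate evidence.

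Some markers of other cell types differed between the diets as well. Over all 1079 miRNAs 8.34% passed as higher and 7.51% as lower, and of the 243 detected on all arrays 20.2% and 21.4%. Of 6 hematopoietic miRNAs, 6 were higher in curcumin tumors. Among them mmu-miR-150-5p was detected in 0 controls and mmu-miR-142-5p in 3 of 6. The summed level of the 6 on the log2 scale was 9.28 to 10.87 in curcumin tumors and 8.32 to 9.08 in controls. Of 5 fibroblast and smooth muscle miRNAs, 2 were higher, mmu-miR-199a-3p and mmu-miR-199a-5p, with sums of 8.96 to 10.09 and 7.34 to 8.62. Of 6 epithelial miRNAs 1 was higher, mmu-miR-205-5p, while mmu-miR-200a-3p, mmu-miR-200b-3p, mmu-miR-200c-3p and mmu-miR-141-3p were detected on 0 of 13 arrays. The epithelial sums were 7.77 to 10.76 and 1.65 to 7.37. Of 4 skeletal muscle miRNAs 1 was higher, mmu-miR-206-3p, with sums of 4.86 to 9.91 and 4.55 to 9.25. Of 2 endothelial miRNAs 0 passed the test, with sums of 7.99 to 9.68 and 7.10 to 8.14, and of 2 erythroid miRNAs 0 passed, with sums of 5.50 to 8.11 and 5.32 to 9.48. The sums of the hematopoietic, the fibroblast and smooth muscle, and the epithelial lists thus did not overlap between the diets. Among single miRNAs, groups without overlap and higher in curcumin tumors were 4.08% of all and 8.23% of the 243. Of 2 melanocytic miRNAs 1 was lower, and their sums were 2.07 to 9.29 and 8.27 to 9.73. The part of these cell types in the rise of the miR-26 family was not tested.

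The diet difference could also be read on each slide by itself. On slide 1, with 3 curcumin and 2 control tumors, the differences of mmu-miR-26a-5p and mmu-miR-26b-5p were 0.85 and 0.98, and those of mmu-miR-103-3p and mmu-miR-107-3p were −0.55 and −0.36. On slide 2, with 4 tumors of each diet, they were 0.91 and 0.88, and −0.25 and −0.18. With this number of tumors no difference of the 4 miRNAs passed on a single slide (limma, adjusted p from 0.140 to 0.792). When the model held the slide as a block, mmu-miR-107-3p passed at −0.25 (limma, adjusted p = 0.0430), and the other 3 miRNAs stayed on their side of the threshold.

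**Figure D4:**
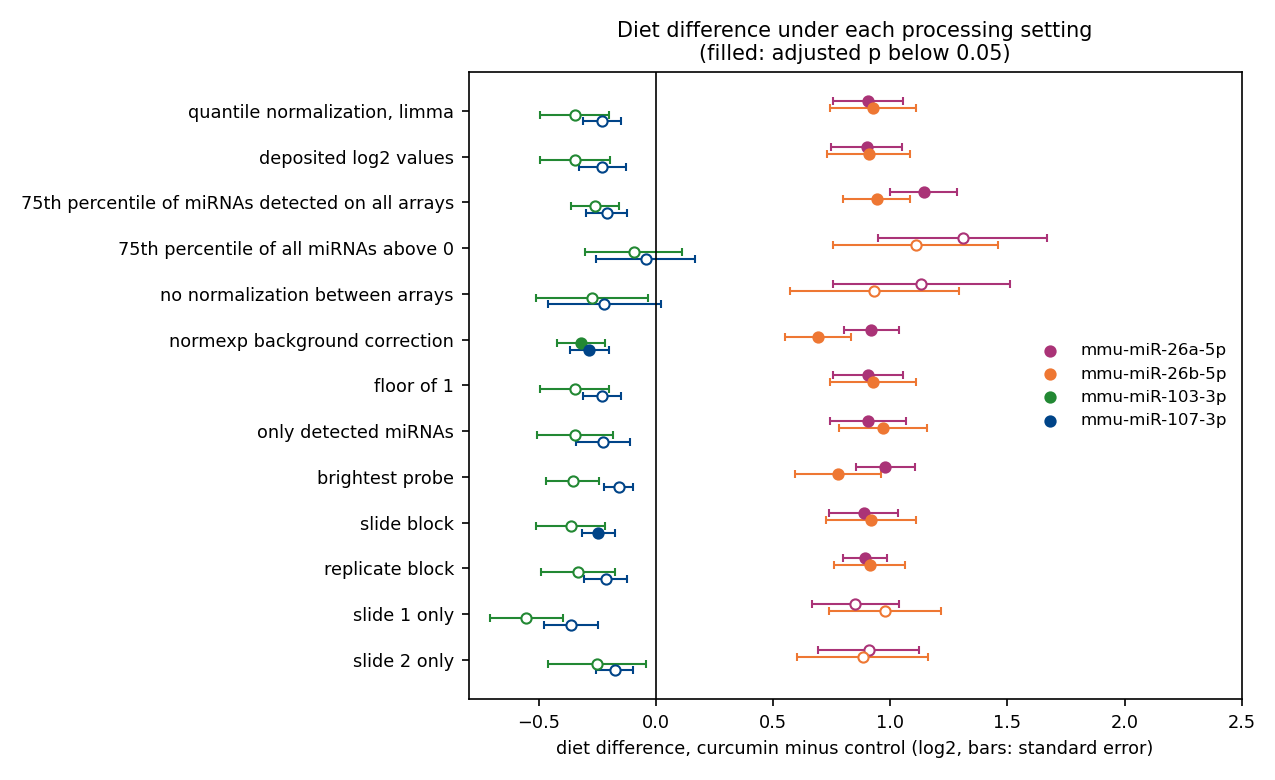
Diet difference of the 4 miRNAs (curcumin minus control, log2, with standard errors) under each processing setting, with filled points where the adjusted p is below 0.05 in limma. In every setting shown the miR-26 miRNAs lie above 0, between 0.69 and 1.31, and the miR-103/miR-107 miRNAs below 0, between −0.55 and −0.04.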

How the data were processed

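RNA of 13 flank tumors (7 curcumin, 6 control, by the sample labels) was hybridized in 1 color to Agilent mouse miRNA arrays. The deposited intensity values come from the software Feature Extraction, whose version per the file headers was 10.10.1.1, after background subtraction and summing over the spots of a probe. They also deposited quantile-normalized log2 values, which served as an alternative. Here the probe signals of each of 1079 miRNAs were summed, quantile normalized over the 13 arrays, set to the smallest positive value where lower (−7.03 on the log2 scale), and log2 transformed. The diets entered a two-sided limma fit of all 1079 miRNAs (limma 3.58.1 in R 4.3.3), called at a Benjamini-Hochberg adjusted p of 0.05. Single values and pairs of miRNAs were compared with exact permutation tests over 1716 splits (Python 3.11.15). The limma step was tested on simulated data. Per-probe values were shifted by the normalization step of their miRNA. The 95% intervals of pairs used the pooled spread of the tumors.

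The methods' t-test, other scalings, normexp on the median spot signal (offset 50), the slide and the replicate number as blocks and each array left out were alternatives. The median signal was used in normexp in place of the planned mean signal. The values of no other samples were used. No spot was saturated. The number of arrays limits the precision, and the p-values measure the spread between these tumors. The mice were housed in groups that shared their chow. The labels do not give the cage, so the tests treat the tumors as independent.

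The miRNAs named are the 4 members, the other strands of their hairpins, relatives by seed, the 2 non-members nearest in pattern to each member, and marker miRNAs of cell types. The members and lists were chosen with earlier results of these data known. Array names are those of the array design, whose header names mm9, while coordinates and sequences are those of GRCm38.p6. Tumor growth, qRT-PCR and protein data were not analysed here.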

Additional observations from a re-analysis of the deposited data

How the results depend on the processing

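The limits of these values are the number of arrays, the choice of scaling and the shared place of each diet on the slides. mmu-miR-26a-5p was not past the threshold with the 75th percentile of all miRNAs (1.31), without normalization (1.13) and on slide 1 (0.85) or slide 2 (0.91) alone, and mmu-miR-26b-5p likewise (1.11, 0.93, 0.98 and 0.88). Adjusted p-values of these ranged up to 0.198 and 0.251 in limma. mmu-miR-103-3p and mmu-miR-107-3p passed with normexp (−0.32 and −0.28), and mmu-miR-107-3p passed in the slide block fit (−0.25). In the other alternatives the 4 miRNAs kept their direction and side of the threshold, the methods' t-test included. Without 1 array the differences were 0.84 to 1.01, 0.85 to 1.06, −0.46 to −0.26 and −0.28 to −0.17 in the order miR-26a, miR-26b, miR-103 and miR-107. Of these 13 fits, the one without control tumor 5 brought mmu-miR-103-3p and mmu-miR-107-3p past the threshold.

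The 4 gaps between the families did not pass on slide 1 (1.40, 1.21, 1.53 and 1.34) or slide 2 (1.16, 1.08, 1.13 and 1.06) alone, where the smallest p that exact permutations can give is 0.1 and 0.0286. They passed in the other alternatives, and without 1 array they were 1.15 to 1.36 (miR-26a against miR-103), 1.08 to 1.25 (miR-26a against miR-107), 1.18 to 1.41 (miR-26b against miR-103) and 1.1005 to 1.30 (miR-26b against miR-107). The gap between mmu-miR-26a-5p and mmu-miR-26b-5p turned to 0.20 with both scalings to the 75th percentile and without normalization, where it passed (exact permutation, adjusted p = 0.00559). It also passed with normexp (0.23, adjusted p = 0.0028) and with the brightest probe (0.20, adjusted p = 0.0484) in exact permutation tests. It was 0.026 on slide 2, where it did not pass, and −0.077 to 0.0047 without 1 array, where it turned without control tumor 2. The gap between mmu-miR-103-3p and mmu-miR-107-3p passed with the brightest probe (−0.19) and was −0.18 to −0.07 without 1 array. The cause was not tested.

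Tumors of the 2 diets share replicate numbers. Deviations from the group means correlated between same-numbered tumors by −0.30 to 0.20 over 243 miRNAs, and 0 of 6 tumors matched their own number best. These values showed no pairing by number but cannot exclude one. With a replicate block the differences were 0.89, 0.91, −0.33 and −0.21 for miR-26a, miR-26b, miR-103 and miR-107, and the gaps between the families were 1.11 to 1.24, with no change of side. Each of these gaps had an adjusted p of 0.0469 in an exact test over the 64 sign changes of the paired differences. The smallest p possible there is 0.0313 before adjustment.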
